A study of Mus musculus with 6 samples.

Results

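*Sox9*, *Sox5*, *Sox6*, *Runx1*, *Runx2*, *Runx3*, *Cbfb* and *Sp7* encode the DNA-binding factors, and a partner of them, that direct mesenchymal cells towards cartilage and bone. They were taken by symbol from a table of 44788 genes, and all 8 were found. The table holds bulk RNA-seq read counts of tail tendons from C57BL/6 mice, 3 weeks old by the labels (the paper's text gives another age), with 3 WT libraries and 3 libraries from *Mkx*-/- mice, sequenced on the Ion Proton system. *Mkx* encodes Mohawk, a homeobox factor of tendon cells. The loss of *Mkx* is not limited to tendon cells. The comparison asks how the loss of *Mkx* changes the transcripts of the tendon. The labels do not say whether each library came from a separate mouse or from pooled tendons, so p-values measure the spread between these libraries, which may be technical.

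Sox9 is the factor that commits mesenchymal cells to cartilage, where it turns on the genes of type II collagen and aggrecan. Sox5 and Sox6 lack an activation domain of their own, bind next to Sox9 and strengthen its action on those genes. Runx1, Runx2 and Runx3 share the Runt domain, with which they bind DNA, and pair with Cbfb, which does not touch DNA and holds the Runx protein in its binding form. Runx2 drives hypertrophic cartilage and osteoblasts, and Sp7, also called osterix, acts after Runx2 in the osteoblast lineage. Runx1 is best known from blood stem cells and is also present in skeletal progenitors, and Runx3 acts in T cells, sensory neurons and cartilage.

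The *Runx* genes are transcribed from a distal and a proximal promoter, and counts per gene do not tell the transcripts of the promoters apart. Promoter windows from 250 bases before to 50 bases after a transcription start were taken from RefSeq on build GRCm38.p6, where 6 of the 8 genes had 13 entries. *Sox9* and *Sp7* had none. The longest run of bases common to a window of each *Runx* gene had 18 bases, and the sequences are shown because *Runx1*, *Runx2* and *Runx3* carry it and are compared as a family below. Each sequence is given 5′ to 3′ on the strand of the gene, with up to 40 bases on either side, and capitals mark the shared run, which holds ACCACA, the core of the Runx motif, 2 times.
*Runx1*, minus strand, chr16:92826025-92826088: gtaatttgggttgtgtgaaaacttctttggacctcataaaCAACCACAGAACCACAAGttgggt
*Runx2*, minus strand, chr17:44814578-44814646: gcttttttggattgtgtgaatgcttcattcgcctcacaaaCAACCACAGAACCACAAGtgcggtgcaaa
*Runx3*, plus strand, chr4:135120469-135120566: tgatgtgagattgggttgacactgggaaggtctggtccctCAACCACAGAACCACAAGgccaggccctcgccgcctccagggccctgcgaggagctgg
The run begins at base 27 after the start in *Runx1*, at base 22 after it in *Runx2* and at 136 bases before it in *Runx3*. Of 32851 windows, 16.8% hold ACCACA or its reverse complement on either strand, and 0.0122% (4 windows) hold it 2 times with the spacing of the shared run. The fourth window is that of *Gm16225*, which lies on the opposite strand over the *Runx3* window. The second windows of *Runx1* and *Runx3* hold no ACCACA. These matches describe the letters in the windows and no binding was measured.

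Counts were brought to a common library size with edgeR's TMM factors and are given as normalised CPM (counts scaled per library), and edgeR's quasi-likelihood test compared WT with *Mkx*-/- over the 14550 genes with enough counts. A gene counts as called where the adjusted p was under 0.05 and the log2 fold change (log2FC, *Mkx*-/- over WT) was beyond 1 in size. The study's methods applied these cutoffs with DESeq2, and edgeR is the main tool here. Values with ± are means and SD over the 3 libraries of a genotype (n = 3). Of all tested genes, 1.89% (275) were called higher in *Mkx*-/- tendons and 1.33% (193) lower. Scaled by library size alone, 711 were called higher and 154 lower, and the median log2FC of all tested genes moved from -0.0037 to 0.25. The 6 libraries held 10835070 to 14160301 counts, so that 1 count was worth 0.0703 to 0.0981 CPM. WT replicate 1 stood apart from the other WT libraries, with a chi-square per degree of freedom of 34.8 and 36.4 against them, where they differed from each other by 7.59. The *Mkx*-/- libraries differed from each other by 20.7 to 24.4, so WT replicates 2 and 3 were the closest pair. *Mkx* had 1381 to 1825 counts in WT and 491 to 620 in *Mkx*-/- libraries, and the counts do not show which exons they came from. WT replicate 3 came from a male mouse by *Ddx3y*, with 301 counts there and 0 in the 5 other libraries. All 10 genes of a tendon marker list, led by *Col1a2* and *Col1a1*, were counted in numbers that allowed a test, with a summed level of 383000 to 525000 CPM in WT and 246000 to 341000 CPM in *Mkx*-/- libraries. This sum rested mostly on *Col1a2* and *Col1a1*, with means of 257900 and 185300 CPM in WT and 127500 and 115600 in *Mkx*-/- tendons. Neither was called. Of the 10 genes, 1 was called higher and 0 lower. At an unadjusted p under 0.05, 2 were higher and 3 lower, where 12.5% and 10.1% of all tested genes were.

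None of the 8 genes was called by edgeR, where 3.22% of all tested genes were called in either direction. DESeq2 with its default filter called *Runx1* (1 gene), where it called 386 of all genes higher and 274 lower. On the same 14550 genes it called *Runx1* and *Sox9* (2 genes), where it called 384 higher and 278 lower. *Runx1*, *Runx2* and *Sox9* were higher in each *Mkx*-/- library than in each WT library, with fitted folds of 2.10, 2.80 and 2.02, and their adjusted p lay between 0.0611 and 0.0891 in edgeR's quasi-likelihood test. *Sox6* was lower in each *Mkx*-/- library, with a fold of 0.792, and *Cbfb* overlapped between the genotypes. Scaled by library size alone, *Sox6* overlapped instead and *Cbfb* was higher in each *Mkx*-/- library. *Sox5* overlapped under both scalings, and *Runx3* and *Sp7* had too few counts for the test. Of the 6 tested genes, 3 had an unadjusted p under 0.05 with a higher level in *Mkx*-/- tendons, where 12.5% of all tested genes did, and 1 with a lower level, where 10.1% did. Groups without overlap were found for 14.6% of all tested genes with *Mkx*-/- higher and for 13.6% with *Mkx*-/- lower. *Runx2* passed the filter on low counts through its *Mkx*-/- libraries, so its place among the tested genes is not independent of its higher level there. In bulk samples, fewer cells of a type and less RNA per cell cannot be told apart, and this holds for all levels below.

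**Figure D1:**
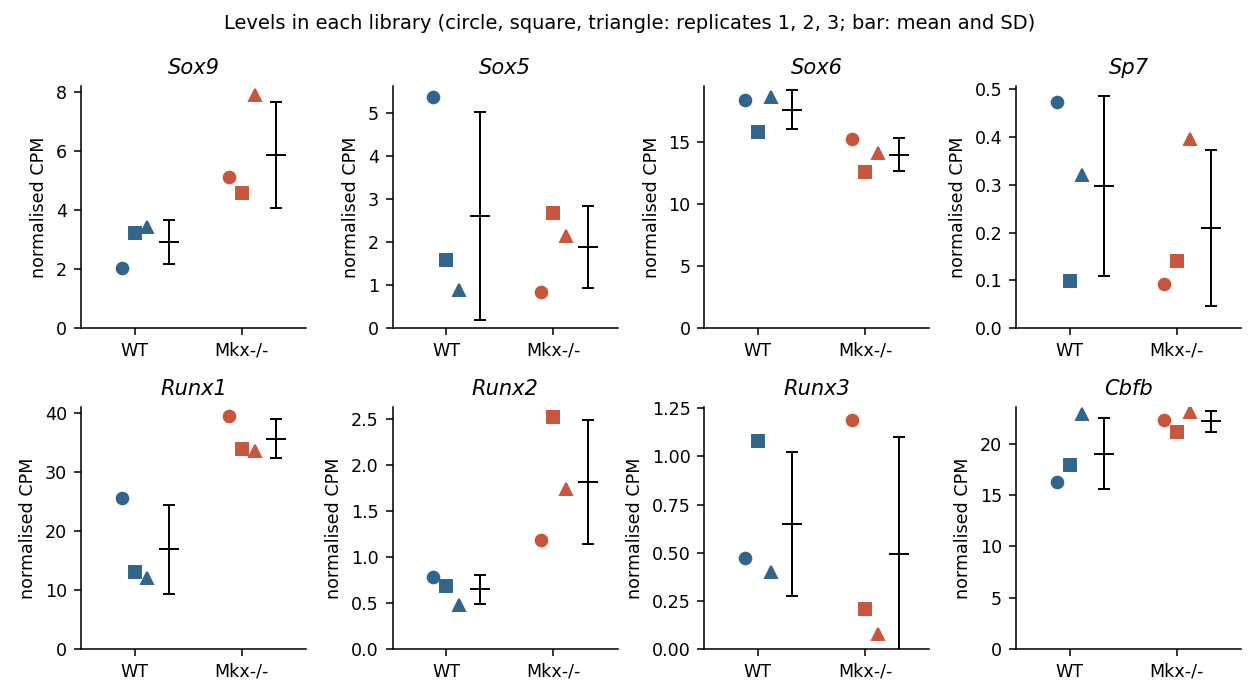
Normalised CPM (y axis, from 0) of the 8 genes in the 3 WT libraries (blue) and the 3 *Mkx*-/- libraries (red), with circles, squares and triangles for replicates 1, 2 and 3 and a bar for the mean and SD (the bar of *Runx3* in *Mkx*-/- reaches below 0 and is drawn from 0). The groups are separate in *Sox9*, *Runx1*, *Runx2* and *Sox6* and overlap in the other 4 genes.

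*Runx1*, at chr16:92601712-92826311 (minus strand, mm9), had 25.6, 13 and 12 CPM in WT against 39.4, 33.9 and 33.5 CPM in *Mkx*-/- libraries. The WT libraries thus split, with replicate 1 between the other WT libraries and the *Mkx*-/- libraries. The mean was 16.9 ± 7.59 CPM in WT and 35.6 ± 3.31 in *Mkx*-/- tendons. The log2FC was 1.07 (standard error 0.27, 95% interval 0.45 to 1.70), with an adjusted p of 0.0611 from edgeR's quasi-likelihood test, which is not past the threshold. It was past it with DESeq2 at its default filter, fitted on all genes with a count (log2FC 1.07, adjusted p = 0.00443). The same held with DESeq2 on the same 14550 genes (adjusted p = 0.00377), and with edgeR on the genes with 1 count in any library (adjusted p = 0.00301). Without WT replicate 1 the log2FC was 1.51 and *Runx1* was called by edgeR (adjusted p = 0.000992), while without any other library it was not, with adjusted p-values up to 0.175. Over 16 alternative settings the adjusted p was past the threshold in 6.

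*Runx1* is also a gene of blood cells. Of 20 leukocyte markers, 14 were tested. At an unadjusted p under 0.05, 0 were higher and 12 lower, where 12.5% and 10.1% of all tested genes were. The summed level of the markers was 627 to 680 CPM in WT and 422 to 524 CPM in *Mkx*-/- libraries. The most abundant of them, *Lyz2* and *Csf1r*, had log2FCs of -0.55 and -0.63, of which that of *Csf1r* gave 0.0173 as the adjusted p of edgeR, and the T cell gene *Cd3e* was at 0 counts in all libraries. Of 6 mast cell markers only *Kit* was tested and it fell, with a log2FC of -2.02 (edgeR adjusted p = 0.00283). The others did not follow it: *Cpa3* had 0 counts in each WT library and 1, 2 and 4 counts in *Mkx*-/- libraries, *Tpsb2* had 0, 0 and 1 against 0, 2 and 6, *Mcpt4* had 0, 0 and 3 against 0, 1 and 6, and *Fcer1a* was at 0. The part of leukocytes or mast cells in the level of *Runx1* was not tested.

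*Runx2*, at chr17:44632936-44951746 (minus strand) with 2 overlapping records in the annotation, was counted 10, 7 and 6 times in WT and 13, 36 and 22 times in *Mkx*-/- libraries. All 3 *Mkx*-/- libraries lay above the WT libraries, and replicate 2 was the highest. This was 0.652 ± 0.157 CPM in WT and 1.82 ± 0.673 in *Mkx*-/- tendons. The log2FC of 1.49 (standard error 0.41, 95% interval 0.56 to 2.42) gave adjusted p-values of 0.0734 (edgeR) and 0.106 (DESeq2). Leaving out each library in turn gave log2FCs of 1.17 to 1.69 and no call, with adjusted p-values of 0.0713 to 0.224.

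*Runx3*, at chr4:134676567-134733905 (plus strand), had 6, 11 and 5 counts in WT and 13, 3 and 1 counts in *Mkx*-/- libraries. *Mkx*-/- replicate 1 held most of the *Mkx*-/- counts, and the groups overlapped. Pooled over the libraries, 22 counts gave 0.622 CPM in WT (exact 95% Poisson interval 0.390 to 0.942) and 17 counts gave 0.450 CPM in *Mkx*-/- tendons (0.262 to 0.721), and these intervals cover counting error only. A difference was not detectable at this depth, and with a filter of 1 count in any library edgeR gave an adjusted p of 0.818.

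*Cbfb*, the common partner of the Runx proteins, lies at chr8:107694574-107741886 (plus strand). It had 16.3, 17.9 and 22.9 CPM in WT and 22.3, 21.1 and 23.1 in *Mkx*-/- libraries. WT replicate 3 was as high as the *Mkx*-/- libraries. Its log2FC was 0.22 (standard error 0.15, edgeR adjusted p = 0.444), and the 95% interval of -0.13 to 0.57 spans folds of 0.915 to 1.48, against 1.36 to 3.24 for *Runx1*, and the difference between these genes was not tested. Scaled by library size alone, its log2FC was 0.48 (edgeR adjusted p = 0.0889) and the groups did not overlap. Per length of exon, the summed level of the 3 *Runx* genes was 0.619, 0.319 and 0.213 of that of *Cbfb* in WT and 0.709, 0.643 and 0.568 of it in the *Mkx*-/- libraries. In these per-length levels *Cbfb* was above the sum of its partners in each library, and WT replicate 1 lay within the *Mkx*-/- range.

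*Sp7*, at chr15:102187040-102197285 (minus strand), was close to the limit of detection. It had 6, 1 and 4 counts in WT and 1, 2 and 5 counts in *Mkx*-/- libraries, where 3 counts correspond to 0.211 to 0.294 CPM. The pooled level was 0.311 CPM from 11 counts in WT (exact 95% Poisson interval 0.155 to 0.557) and 0.212 CPM from 8 counts in *Mkx*-/- tendons (0.0915 to 0.417). A difference was not detectable at this depth, and with a filter of 1 count in any library edgeR gave an adjusted p of 0.813.

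*Sox9*, at chr11:112643538-112649074 (plus strand), had 2.05, 3.24 and 3.44 CPM in WT, from 26, 33 and 43 counts, and 5.13, 4.57 and 7.93 CPM in the *Mkx*-/- libraries, from 56, 65 and 100 counts. The *Mkx*-/- libraries lay above the WT libraries, with *Mkx*-/- replicate 3 the highest and WT replicate 1 the lowest. The mean was 2.91 ± 0.754 CPM in WT and 5.88 ± 1.80 in *Mkx*-/- tendons. The log2FC of 1.01 (standard error 0.30, 95% interval 0.33 to 1.70) gave adjusted p-values of 0.0891 (edgeR), 0.0612 (DESeq2) and 0.0499 (DESeq2 on the same 14550 genes). Without *Mkx*-/- replicate 3 it was 0.74 with 0.266 as the adjusted p of edgeR, and without WT replicate 1 it was 0.81 with 0.146.

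Sox9 is also present in cells other than cartilage, such as glial cells and hair follicles. The marker counts below stand beside shares over all tested genes of 1.89% called higher and 1.33% called lower. At an unadjusted p under 0.05, 12.5% of all tested genes were higher and 10.1% lower. All 10 Schwann cell markers were tested, and 0 were called, with 10 higher at an unadjusted p under 0.05 and a summed level of 8490 to 11200 CPM in WT and 13200 to 24400 CPM in *Mkx*-/- libraries, with *Pmp22* among the most abundant. Of 9 tested keratinocyte markers, 2 were called higher, and 6 were higher and 1 lower at an unadjusted p under 0.05. The list summed to 16.2 to 35.8 CPM in WT and 44.0 to 49.8 in *Mkx*-/- libraries. Of the most abundant, *Perp* and *Trp63*, *Perp* was called with a log2FC of 1.81 (edgeR adjusted p = 0.0323). *Trp63* had a log2FC of -1.02 (edgeR adjusted p = 0.102). The other called marker passed the filter on low counts through its *Mkx*-/- libraries. Of 10 endothelial markers, 1 was called higher, and 6 were higher and 0 lower at an unadjusted p under 0.05, with sums of 62.7 to 78.6 against 86.6 to 148 CPM. Of the most abundant, *Tek* and *Ecscr*, *Ecscr* was the called gene, with a log2FC of 1.43 (edgeR adjusted p = 0.00227). *Tek* had a log2FC of 0.019 (edgeR adjusted p = 0.960). As for *Sox9*, the lowest sum of each of these 3 lists was in WT replicate 1, and the highest was in *Mkx*-/- replicate 3 for the Schwann cell and endothelial lists. Their part in the level of *Sox9* was not tested.

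*Sox6*, at chr7:122614858-123182258 (minus strand), had 18.4, 15.8 and 18.7 CPM in WT against 15.3, 12.6 and 14.1 CPM in *Mkx*-/- libraries. The groups did not overlap, but the lowest WT and the highest *Mkx*-/- library were close. The log2FC of -0.34 (standard error 0.14, 95% interval -0.66 to -0.018) gave adjusted p-values of 0.197 (edgeR) and 0.356 (DESeq2). Scaled by library size alone, the log2FC was -0.09 (edgeR adjusted p = 0.758), with 18.4, 13.6 and 16.5 CPM in WT against 15.4, 14.2 and 16.1 in *Mkx*-/- libraries, which overlapped. *Sox6* is also known from slow and fast muscle fibres. Of 20 muscle markers, led by *Acta1* and *Myh1*, 5 were called higher, where 1.89% of all tested genes were. At an unadjusted p below 0.05, 19 were higher, where 12.5% of all tested genes were. The markers summed to 116 to 501 CPM in WT and 681 to 3520 CPM in *Mkx*-/- libraries, with the highest sum in *Mkx*-/- replicate 1. Their part in the level of *Sox6* was not tested.

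*Sox5*, at chr6:143776945-144730497 (minus strand), had 5.36, 1.57 and 0.881 CPM in WT and 0.824, 2.67 and 2.14 in *Mkx*-/- libraries. WT replicate 1, with 68 counts, was above all other libraries, and the groups overlapped. The log2FC was -0.46 (standard error 0.66, edgeR adjusted p = 0.733), with a wide 95% interval of -1.97 to 1.05. Without WT replicate 1 it was 0.65 (adjusted p = 0.525), so that the sign rested on this library.

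**Figure D2:**
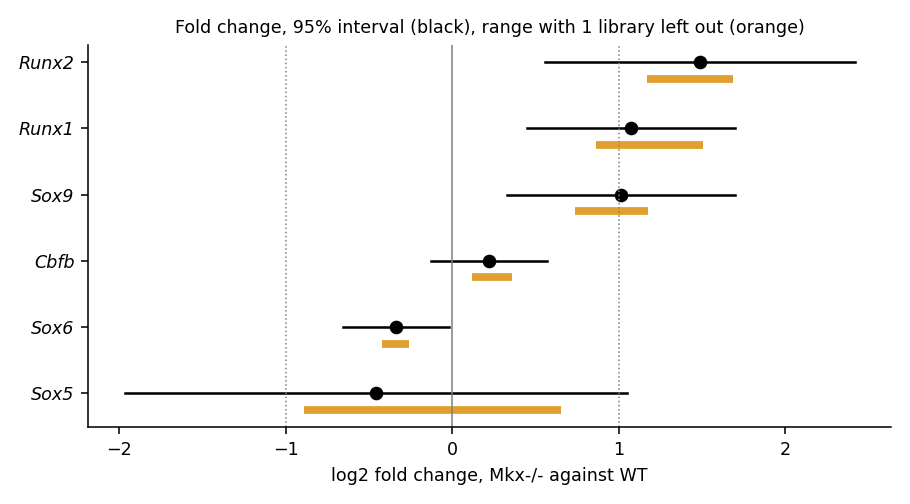
Log2 fold change of *Mkx*-/- against WT (x axis) for the 6 tested genes, with the 95% interval of edgeR's fit in black, the range over fits that left out 1 library in orange, and dotted lines at -1 and 1. The intervals of *Runx2*, *Runx1* and *Sox9* lie above 0, that of *Cbfb* spans 0, and the range of *Sox5* runs from -0.89 to 0.65.

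The annotation used here, GENCODE on mm9, places *4933415D12Rik*, *Gm10497* and *Gm16801* on the opposite strand over 1330 exon bases of *Sox5*, 519 of *Runx2* and 106 of *Runx1*, and whether the counting used strand is not given in the sources used here, so reads of these genes could be included. No gene overlaps the exons of *Sox9*, *Sox6*, *Runx3*, *Cbfb* or *Sp7* in that annotation.

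To set the genes beside each other, the normalised CPM was divided by the length of all annotated exons of the gene in kb, from 2911 bases in *Cbfb* to 14376 bases in *Sox5*. This understates genes such as *Sox5* with many alternative exons. In WT tendons *Cbfb* had the highest level, 6.54 ± 1.19 CPM per kb, followed by *Runx1* with 2.16 ± 0.973 and *Sox6* with 1.99 ± 0.181 CPM per kb. *Runx1* and *Sox6* did not differ beyond their spread, and *Runx1* was above *Sox6* in 1 of the 3 libraries. *Sox9* followed with 0.704 ± 0.182 CPM per kb, below *Sox6* in all 3 libraries and above *Sox5* in all 3. *Sox5*, *Runx3*, *Sp7* and *Runx2* had means of 0.0738 to 0.181 CPM per kb, and each overlapped with its neighbour in this order.

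In *Mkx*-/- tendons *Cbfb* was again first with 7.61 ± 0.331 and *Runx1* second with 4.56 ± 0.425 CPM per kb, now above *Sox6* in all 3 libraries. *Sox6* had 1.58 ± 0.154 and *Sox9* 1.42 ± 0.435 CPM per kb, and their ranges overlapped. *Runx2*, the last of the 8 in WT, came after *Sox9* with 0.206 ± 0.0761 CPM per kb and its range overlapped with that of *Sox5*.

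**Figure D3:**
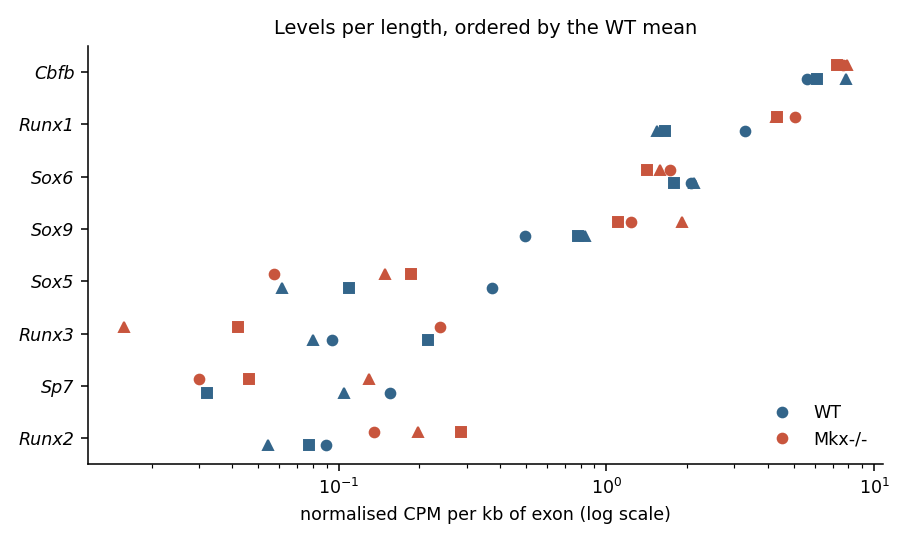
Normalised CPM per kb of exon (x axis, log scale) of the 8 genes in each WT (blue) and *Mkx*-/- (red) library, ordered by the WT mean, with circles, squares and triangles for replicates 1, 2 and 3. *Cbfb*, *Runx1*, *Sox6* and *Sox9* lie at 0.495 CPM per kb or more in each library and the other 4 genes at 0.373 or less.

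Shares within a family do not depend on how the libraries are scaled. *Sox9* held 7.95%, 15.7% and 14.9% of the summed *Sox9*, *Sox5* and *Sox6* counts in WT against 24.1%, 23.0% and 32.8% in *Mkx*-/- libraries. The groups did not overlap, with a mean of 12.9% ± 4.27 in WT and 26.7% ± 5.34 in *Mkx*-/- tendons. The two-sided exact permutation test gave p = 0.1, the smallest that 3 against 3 libraries allow, and 0.4 when adjusted over the 6 shares tested. *Sox6* held 76.4% ± 5.0 in WT and 64.6% ± 6.88 in *Mkx*-/- tendons (exact permutation p = 0.2), with an overlap through *Mkx*-/- replicate 1. Per kb of exon its share was 66.7% to 70.5% in WT and 43.6% to 57.1% in *Mkx*-/- libraries, with no overlap (exact permutation p = 0.1). *Sox5* held 20.8% in WT replicate 1 and 3.82% to 13.5% elsewhere (exact permutation p = 0.9).

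*Runx1* held most of the *Runx* counts in both genotypes, 92.2% ± 3.76 in WT and 93.9% ± 1.21 in *Mkx*-/- tendons (exact permutation p = 0.7). *Runx2* held 3.78% ± 0.868 and 4.90% ± 2.03 (p = 0.5 in the same exact permutation test), and *Runx3* 4.07% ± 2.91 and 1.22% ± 1.43 (exact permutation p = 0.2). Both groups overlapped in each of the *Runx* shares. The shares cannot compare the responses of *Runx1* and *Runx2*, because *Runx1* holds nearly all counts and the shares also move with the few counts of *Runx3*. A difference between *Runx1* and *Runx2* in their response was not tested.

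**Figure D4:**
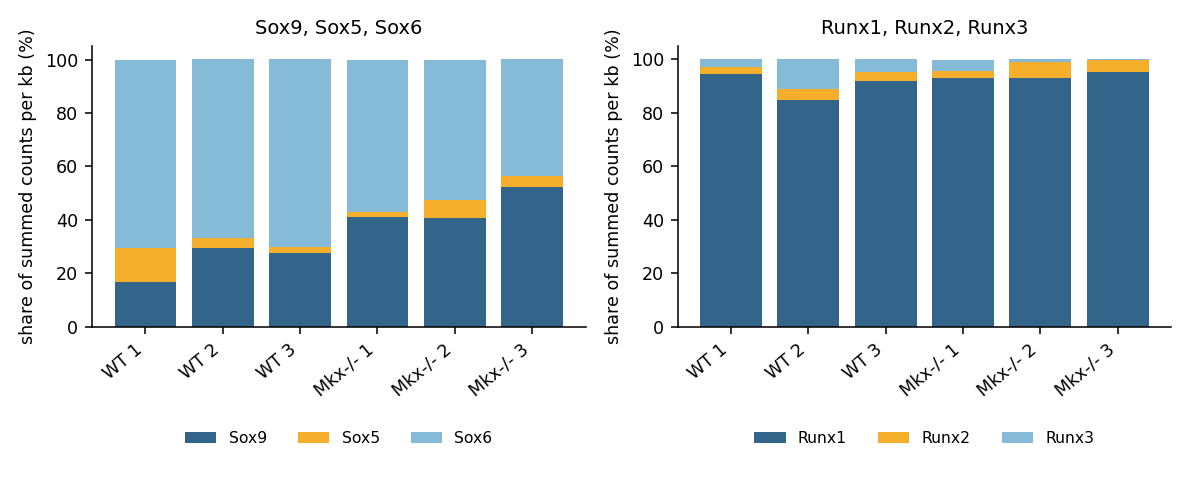
Share of each gene (y axis, %) in the summed counts per kb of exon of *Sox9*, *Sox5* and *Sox6* (left) and of *Runx1*, *Runx2* and *Runx3* (right) in each library. *Sox9* takes 16.8% to 29.3% of the trio per kb in WT and 40.7% to 52.4% in *Mkx*-/- libraries, and *Runx1* takes at least 85.0% of the *Runx* levels in each library.

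Among 10294 or 10295 other tested genes averaging 5 CPM or more, those most like each gene were sought by the root mean square difference of log2 CPM over the 6 libraries, after each gene was centred on its own mean. *Egfl7*, one of the endothelial markers above, and *Ret*, a receptor of neural cells, were the closest to *Sox9*, with differences of 0.0901 and 0.108. *Pde10a* and *Deptor*, an inhibitor of mTOR, were the closest to *Runx1* (0.142 and 0.146). Chosen on its pattern over the 6 libraries, they shared by selection its higher level in WT replicate 1 than in the other WT libraries. *Tmem100* and *Lgals3* were the closest to *Runx2* (0.176 and 0.181), *Tcf12* and *Ccdc127* to *Sox6* (0.0207 and 0.0288), and *Sept7* and *Rab5a* to *Cbfb* (0.0329 and 0.0363). For *Sox5* the nearest were *Pla1a* and the MHC class II gene *H2-Eb1*, at larger differences of 0.376 and 0.400. Genes like *Runx1*, *Runx2* or *Sox9* were chosen on a pattern that is higher in *Mkx*-/- libraries, so their own differences are not given.

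Of 20 co-repressors, co-activators and inhibitors of Runx proteins, 19 were tested and 0 were called by edgeR or by DESeq2. At an unadjusted p under 0.05, 6 were higher and 3 lower, where 12.5% and 10.1% of all tested genes were, and the median log2FC was 0.050, where it was -0.0037 over all tested genes. *Tle4*, a Groucho co-repressor that binds the end of Runx proteins, was at 15.2 ± 2.02 CPM in WT and 9.02 ± 0.353 in *Mkx*-/- tendons, with a log2FC of -0.76 and an adjusted p of 0.0275 in edgeR, past the p threshold but not that on the fold. Its paralog *Tle3* had a log2FC of 0.54 (edgeR adjusted p = 0.0520), in the other direction. *Cbfa2t3*, a relative of the co-repressor fused to Runx1 in leukaemia, and *Twist2*, whose protein binds and inhibits Runx2, had log2FCs of -0.58 and -0.75 (edgeR adjusted p = 0.0658 and 0.0725). *Dlx5*, a homeobox factor that acts with Runx2 in osteoblasts, was at 1.01 ± 0.247 CPM in WT and 2.19 ± 0.259 in *Mkx*-/- tendons. Its log2FC of 1.12 was not past the threshold (edgeR adjusted p = 0.0769), and it rested on 10 to 29 counts per library. Like *Runx2*, *Dlx5* passed the filter on low counts through its *Mkx*-/- libraries.

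Of 9 partners and co-activators of Sox9, 8 were tested and 0 were called by edgeR or by DESeq2. At an unadjusted p under 0.05, 0 were higher and 1 lower, where 12.5% and 10.1% of all tested genes were. *Ppargc1a*, a co-activator better known for mitochondrial genes, had the smallest p, with a log2FC of -1.22 (edgeR adjusted p = 0.0834). The other 7 lay between -0.18 and 0.20, among them *Med12*, *Arid5a* and *Crebbp*, and the median of the list was -0.076.

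Of 21 cartilage genes that the Sox factors are known to drive, 16 were tested, of which 3 were called higher and 1 lower, against 1.89% and 1.33% of all tested genes. *Ucma*, which encodes a secreted protein of cartilage, had 4.88, 7.46 and 7.37 CPM in WT and 80.1, 66.7 and 71.8 in *Mkx*-/- libraries, with a log2FC of 3.47 (standard error 0.19, edgeR adjusted p = 0.000158). *Acan*, the gene of the cartilage proteoglycan aggrecan, rose from 32 ± 9.74 to 147 ± 33.5 CPM, a log2FC of 2.20 (edgeR adjusted p = 0.00380). *Matn3*, which encodes a cartilage matrix protein, rose from 33.2 ± 3.39 to 90.8 ± 12.8 CPM, a log2FC of 1.45 (edgeR adjusted p = 0.00181).

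*Col11a2*, a fibrillar collagen gene of cartilage that was abundant in these tendons, fell from 4013 ± 816 CPM to 1216 ± 375 CPM, with a log2FC of -1.72 (edgeR adjusted p = 0.0107). *Col2a1*, the main collagen gene of cartilage, overlapped between the genotypes with 748 ± 261 and 706 ± 220 CPM and a log2FC of -0.08 (edgeR adjusted p = 0.905). *Comp* and *Col9a2* had log2FCs of 0.88 each and were not past the threshold (edgeR adjusted p = 0.0598 and 0.108). The median log2FC of the 16 genes was 0.70, and 5 of the 21 were not tested, of which *Matn1* was at 0 in all libraries.

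Of 20 genes of hypertrophic cartilage and bone that Runx2 and Sp7 are known to drive, 10 were tested, 1 was called higher and 0 were called lower, against 1.89% and 1.33% of all tested genes. The called gene was *Spp1*, which encodes osteopontin, with 45.5, 46.0 and 58.0 CPM in WT and 65.5, 137 and 110 in *Mkx*-/- libraries. Its log2FC of 1.07 gave 0.0489 as the adjusted p of edgeR, and the call was lost in 5 of the 6 fits that left out 1 library, all but that without *Mkx*-/- replicate 1. *Alpl*, the alkaline phosphatase of mineralising cells, had 1.09 ± 0.670 CPM in WT and 3.31 ± 0.674 in *Mkx*-/- tendons. Its log2FC of 1.58 was past the threshold with DESeq2 and not with edgeR (adjusted p = 0.0722). With 7, 9 and 23 counts in WT and 40, 36 and 47 in *Mkx*-/- libraries, it passed edgeR's filter on low counts through the latter. As for *Runx2*, its place among the tested genes is thus not independent of its higher level in *Mkx*-/- libraries. *Col10a1* and *Mmp13*, genes of hypertrophic cartilage, were near 1 CPM with log2FCs of 0.15 and -0.36 (edgeR adjusted p = 0.895 and 0.756). The osteoblast and osteocyte genes *Ibsp*, *Bglap*, *Bglap2*, *Dmp1*, *Phex* and *Sost* had too few counts for the test, and *Tnfsf11* and *Mepe* were at 0 in all libraries. The median log2FC of the 10 tested genes was 0.16.

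**Figure D5:**
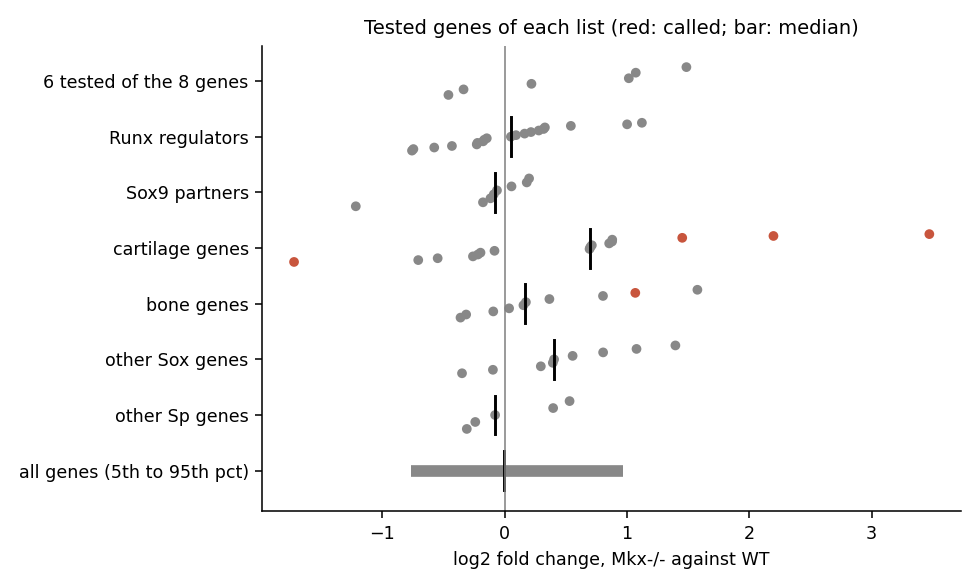
Log2 fold change of *Mkx*-/- against WT (x axis) of each tested gene of the 8 genes and of 6 gene lists, with called genes in red, a bar at the median of each list, and the 5th to 95th percentile of all tested genes (-0.77 to 0.97) in grey. *Ucma*, *Acan*, *Matn3* and *Col11a2* are called among the cartilage genes and *Spp1* among the bone genes.

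Of the 17 other *Sox* genes, 9 were tested, edgeR called 0 and DESeq2 called 1, *Sox10*. At an unadjusted p under 0.05, 4 were higher, where 12.5% of all tested genes were. *Sox10*, the Schwann cell factor, had 22.1, 30.7 and 29.1 CPM in WT and 33.9, 61.5 and 77.3 in *Mkx*-/- libraries, with a log2FC of 1.08 (edgeR adjusted p = 0.0660). Like the Schwann cell list, of which it is a member, it was highest in *Mkx*-/- replicate 3. *Sox18*, an endothelial factor, had a log2FC of 1.40 from 0.857 ± 0.138 to 2.27 ± 1.26 CPM (edgeR adjusted p = 0.127), and its *Mkx*-/- values were also highest in replicate 3. Like *Runx2*, *Sox18* passed the filter on low counts through its *Mkx*-/- libraries. *Sox8*, the nearest relative of *Sox9* and *Sox10*, and *Sox13*, that of *Sox5* and *Sox6*, had log2FCs of 0.80 and 0.39 (edgeR adjusted p = 0.150 and 0.133).

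Of the 8 other *Sp* genes, 5 were tested and 0 were called by edgeR or by DESeq2. At an unadjusted p under 0.05, 1 was higher, where 12.5% of all tested genes were. *Sp2* had 15.8 ± 0.727 CPM in WT and 22.8 ± 1.55 in *Mkx*-/- tendons, with a log2FC of 0.53 that was past the p threshold and not that on the fold (edgeR adjusted p = 0.0431). *Sp1*, *Sp3* and *Sp4* had log2FCs of -0.31, -0.08 and -0.24 (edgeR adjusted p = 0.308, 0.798 and 0.502).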

How the data were processed

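Total RNA of tail tendons was sequenced in 6 libraries, 3 for each genotype. The authors aligned the reads to mm9 with MapSplice and deposited raw counts per gene symbol in 1 table, of which 0 sample columns were left unused. The counting program, its annotation and its use of strand are not given in the sources used here. Samples were grouped by the genotype in the labels. Genes passing filterByExpr were scaled by TMM and fitted with genotype only by edgeR 4.0.16 (quasi-likelihood test, Benjamini-Hochberg adjustment, R 4.3.3, prior count 0.125), and a call needed an adjusted p below 0.05 together with a log2 fold change beyond 1. DESeq2 1.42.0 (on all genes with a count, and on the genes of the edgeR filter), other scalings and filters, a robust fit, removal of muscle genes, a replicate block and leaving out each library were the alternatives. The code was tested on simulated data. Exon lengths were unions from GENCODE on mm9. Depth was 10835070 to 14160301 counts per library, and intervals on pooled counts cover counting error only.

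The 8 genes and all lists were chosen with earlier results of these data known. From each list the called genes, otherwise up to 4 with the smallest p, were named, with the 2 most abundant markers of each cell type and the 2 genes most like each tested gene (0.1 CPM added before the log). *Col2a1*, *Comp*, *Col9a2*, *Alpl*, *Col10a1*, *Mmp13*, *Dlx5* and the genes at low counts or 0 were named after their values were seen. Some genes that the naming rule gives are not reported here.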

Additional observations from a re-analysis of the deposited data

How the results depend on the processing

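Against 0 of the 8 genes called, 1 (*Runx1*) was called with DESeq2 at its default filter and with the replicate block. At that filter DESeq2 was fitted on more genes (25777), of which some, such as *Sp7*, got no adjusted p. With DESeq2 on the 14550 genes of the edgeR filter, an alternative chosen after seeing the data, and with a filter of 1 count in any library, 2 (*Sox9*, *Runx1*) were called. With library size only 3 (*Sox9*, *Runx1*, *Runx2*) were called, and 0 to 1 when leaving out 1 library. Under library size only the median of all genes moved to 0.25, and the log2 fold changes of *Sox9*, *Runx1* and *Runx2* were 1.29, 1.29 and 1.74, and that of *Sox6* was -0.09. With the filter of 1 count, those of *Sox9* and *Runx1* were 1.03 and 1.08. *Runx1* had 1.07 with DESeq2 under both filters, and *Sox9* 1.01 with DESeq2 on the 14550 genes. The same replicate numbers in both genotypes do not pair the libraries (correlations of deviations 0.036, -0.202 and 0.292), and with the block *Runx1* had 1.15 (edgeR adjusted p = 0.0452). Leaving out 1 library gave 0.86 to 1.51 for *Runx1* and -0.89 to 0.65 for *Sox5*, and differences of -0.356 to 3.30 percentage points in the share of *Runx1* and -5.47 to 3.02 in that of *Sox5*. All genes called higher (275) became 711 with library size only, 541 with the filter of 1 count and 103 to 321 without 1 library, and those called lower (193) 322 with that filter and 112 to 248 without 1 library. DESeq2 called 386 of all genes higher with its default filter and 384 on the genes of the edgeR filter. Of the bone genes 2 (*Alpl*, *Spp1*) and of the other *Sox* genes 1 (*Sox10*) were called higher with DESeq2 under both filters. Without 1 library these were 0 to 1 each, and 1 to 2 cartilage genes were called lower. Of 94 fits of the 6 tested genes under alternatives, 83 kept direction and side of the threshold. The causes were not tested. *Runx3* and *Sp7* were limited by depth.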
